A study of Homo sapiens with 18 samples.

Results

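The response of U2OS cells overexpressing wild-type DNMT3A to cytarabine was described across all genes, from 6 of the 18 RNA sequencing libraries of the series. U2OS is an established human osteosarcoma line. The members were chosen by their labels: 3 libraries of the wild-type DNMT3A line taken after 24 h with 10 µM cytarabine (Ara-C), and 3 libraries of the same line without drug. The drug-free cells are described as a vehicle control in the series text and as untreated on the samples, and the latter word is used here. The other 12 libraries came from U2OS lines with the empty retroviral vector MigR1 (EV) and with mutant DNMT3A (MUT), treated and sampled in the same way, and serve below only to test where the wild-type line (WT) responded otherwise. For the mutant line the series text and the sample labels name different amino acid changes. All 3 lines are overexpression lines, so the WT cells carry introduced DNMT3A besides their own, and whether a line is 1 clone is not given in the sources used here. The replicates are 3 biological replicates per group, plated separately, so the p-values measure the spread between cultures of the same line. That spread was estimated over all 18 libraries of the 3 lines, not from the WT cultures alone.

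Cytarabine is a cytidine analogue. After uptake through nucleoside transporters it is phosphorylated to its triphosphate and built into DNA, where it slows or stops the replication fork and activates the S-phase checkpoint. Damaged or stalled cells that have working p53, as U2OS does, induce the cell cycle inhibitor CDKN1A and a wider set of p53 targets, and genes needed for mitosis are repressed through the DREAM complex and related repressors at their promoters. DNMT3A is a de novo DNA methyltransferase, which places methyl groups on cytosines in CpG context.

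DNMT3A itself (chromosome 2, 25227855 to 25342591, minus strand) had 131, 129 and 139 CPM in the 3 untreated WT libraries and 182, 166 and 181 CPM in the 3 treated ones. CPM are counts per M counts of the TMM-scaled library, and endogenous and introduced transcripts are not separated in them. The treated libraries lay above the untreated ones, but the log2 fold change of 0.40 (SE 0.182) did not pass the threshold, an adjusted p under 0.05 (edgeR quasi-likelihood test, Benjamini-Hochberg adjusted p 0.0724). It passed in a fit of the 6 WT libraries alone (adjusted p 2.96e-08 in edgeR), without the untreated MUT libraries (6.46e-07) and with a replicate block (0.0438). The untreated EV line had 26.9 ± 0.662 CPM (SD, n = 3), so the untreated WT line exceeded it by 2.31 on the log2 scale (adjusted p 1.82e-07 in edgeR), as its label says.

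The 6 WT libraries held between 17.1 and 21.5 M counts, with 22368 to 23048 genes detected in each. Their replicates were close, with a biological coefficient of variation of 0.0398 untreated and 0.0486 treated, against 0.216 in the untreated MUT libraries that share the fit. The first principal component of the 6 libraries held 70.5% of the variance and separated treated from untreated libraries, and the second held 8.55%. Of the mesenchymal markers set for an osteosarcoma line, VIM, SPARC and FN1 were at 2063 to 2136, 1120 to 1170 and 669 to 722 CPM in the untreated libraries, while COL1A2 (1.38 to 2.26 CPM) and NT5E (0.423 to 0.539 CPM) were low. PTPRC and the other blood markers apart from CD34 stayed under 1 CPM in all 6 libraries. The summed level of the mesenchymal markers went from 4330 to 4400 CPM without drug to 3180 to 3270 CPM with it. VIM, at 1142 to 1159 CPM with drug, made up most of that fall: of the 12 markers tested 3 rose (COL1A2, THY1 and CDH11) and VIM alone fell, with a median log2 fold change of 0.115; FN1 and SPARC also passed as lower with the 6 WT libraries alone and without the untreated MUT libraries. The sum of the 6 endothelial markers went from 4.13 to 4.40 CPM to 8.72 to 10.5 CPM. All 4 endothelial markers tested were called higher, from levels under 2 CPM. PECAM1 and KDR, at no more than 0.418 and 0.186 CPM in any of the 6 libraries, were not tested. Summed blood markers went from 2.49 to 3.14 CPM to 5.85 to 7.08 CPM, of which CD34 made up most, summed neural markers from 9.32 to 10.9 CPM to 13.6 to 16.7 CPM, and summed epithelial markers, mainly KRT18 and KRT8, from 508 to 559 CPM to 486 to 510 CPM. These shifts moved with every result below, and their part in them was not tested.

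Cytarabine changed 8932 of 18226 tested genes in the WT line. Of all genes tested, 26.3% rose and 22.7% fell, and these shares are the background for the gene groups that follow. The median log2 fold change of all genes was 0.026. Rises were the larger changes: 1909 genes rose and 387 fell by a log2 fold change of at least 1. With the scaling factors of the authors' normalized table in place of TMM factors, the higher genes made up 46.8% of the calls instead of 53.6%. The plot of fold change against abundance shows both features.

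**Figure D1:**
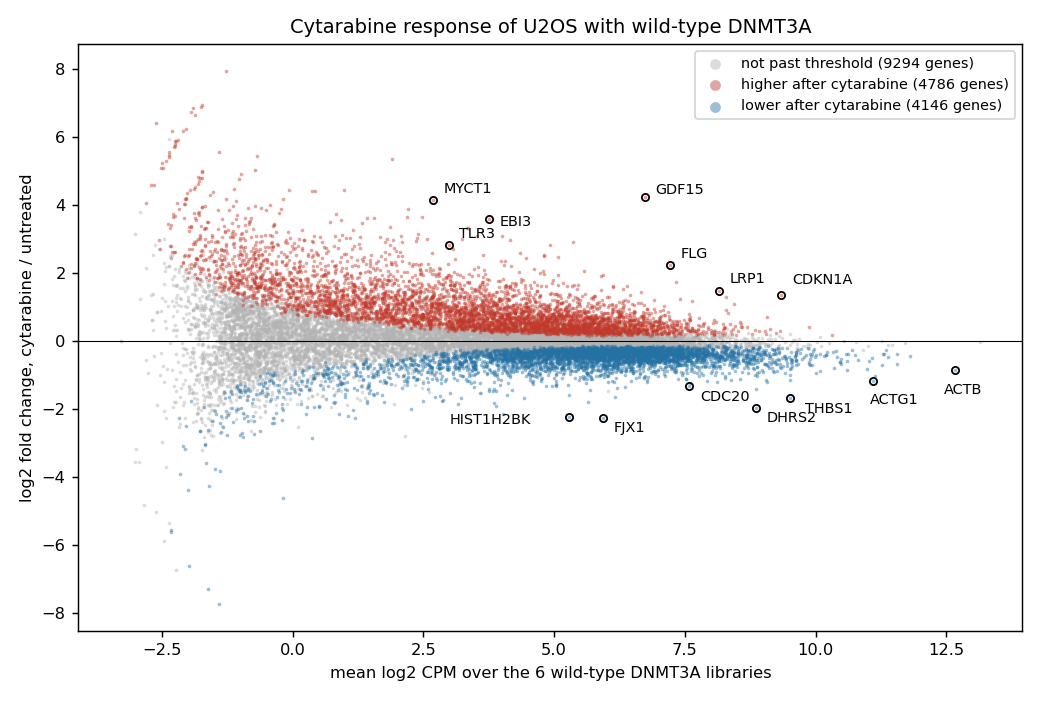
Each point is 1 of the 18226 tested genes. The horizontal axis gives the mean log2 CPM over the 6 wild-type DNMT3A libraries and the vertical axis the fitted log2 fold change of cytarabine over untreated; red genes rose, blue genes fell and grey genes did not pass the threshold, and circled genes carry their symbols. Rises reach further than falls at low abundance, while the most abundant genes, such as ACTB and ACTG1, lie below the line; fitted fold changes of genes with few counts are imprecise.

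Targets of p53 rose. Of 31 tested members, 23 rose and 1 fell, with a median log2 fold change of 0.56. The cell cycle inhibitor CDKN1A (chromosome 6, 36676460 to 36687340, plus strand) had 423, 404 and 399 CPM untreated and 1014, 1031 and 1062 CPM treated. Every treated library lay more than 2-fold above every untreated one, and the log2 fold change was 1.34 (SE 0.0609, adjusted p 6.07e-12 in the edgeR quasi-likelihood test). The stress cytokine GDF15 went from 23.2, 26.9 and 23.8 CPM to 459, 418 and 494 CPM, a log2 fold change of 4.21 (SE 0.143). MDM2, the ubiquitin ligase that removes p53, went from 249, 242 and 230.3 CPM to 438, 431 and 396 CPM. Groups did not overlap for any of these 3 genes. Other arrest and feedback genes that rose were TP53INP1 (1.35), BTG2 (0.84), TIGAR (0.84), SESN1 (0.78), PLK3 (0.75) and the phosphatase PPM1D (0.57), all as log2 fold changes. PLK2 was the member that fell, by 0.33 on the log2 scale.

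The 4 p53 targets of DNA repair and nucleotide supply all rose. The p53-inducible ribonucleotide reductase subunit RRM2B had 231, 223 and 225 CPM untreated and 448, 422 and 407 CPM treated, a log2 fold change of 0.91 (SE 0.0653 and adjusted p 1.94e-09 in edgeR). The translesion polymerase POLH rose by 0.76, and the nucleotide excision repair genes XPC and DDB2 by 0.56 and 0.47, on the log2 scale. Among the 12 tested apoptosis targets 7 rose and none fell. These included FDXR (1.22), TP53I3 (1.04), the death receptor FAS (1.04), APAF1 (0.91) and the death receptor TNFRSF10B (0.41). The genes for the BH3-only proteins PUMA and NOXA and for the pore former BAX did not pass the threshold: BBC3 had 41.3, 44.1 and 38.4 CPM untreated and 41.1, 40.04 and 44.6 CPM treated, PMAIP1 had a log2 fold change of 0.03 and BAX one of 0.14, which passed with the 6 WT libraries alone (adjusted p 0.00247 in edgeR). Across the 16 tested members of the BCL2 family 3 rose and 3 fell. The survival gene BCL2L1 went from 334, 323 and 333 CPM to 438, 443 and 425 CPM, while MCL1, another survival gene, went from 389, 379 and 376 CPM to 290.1, 310 and 301 CPM. BCL2A1 (1.41) and BID (0.35) also rose, and BOK (-0.56) and BCL2L11 (-0.43) also fell, as log2 fold changes.

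**Figure D2:**
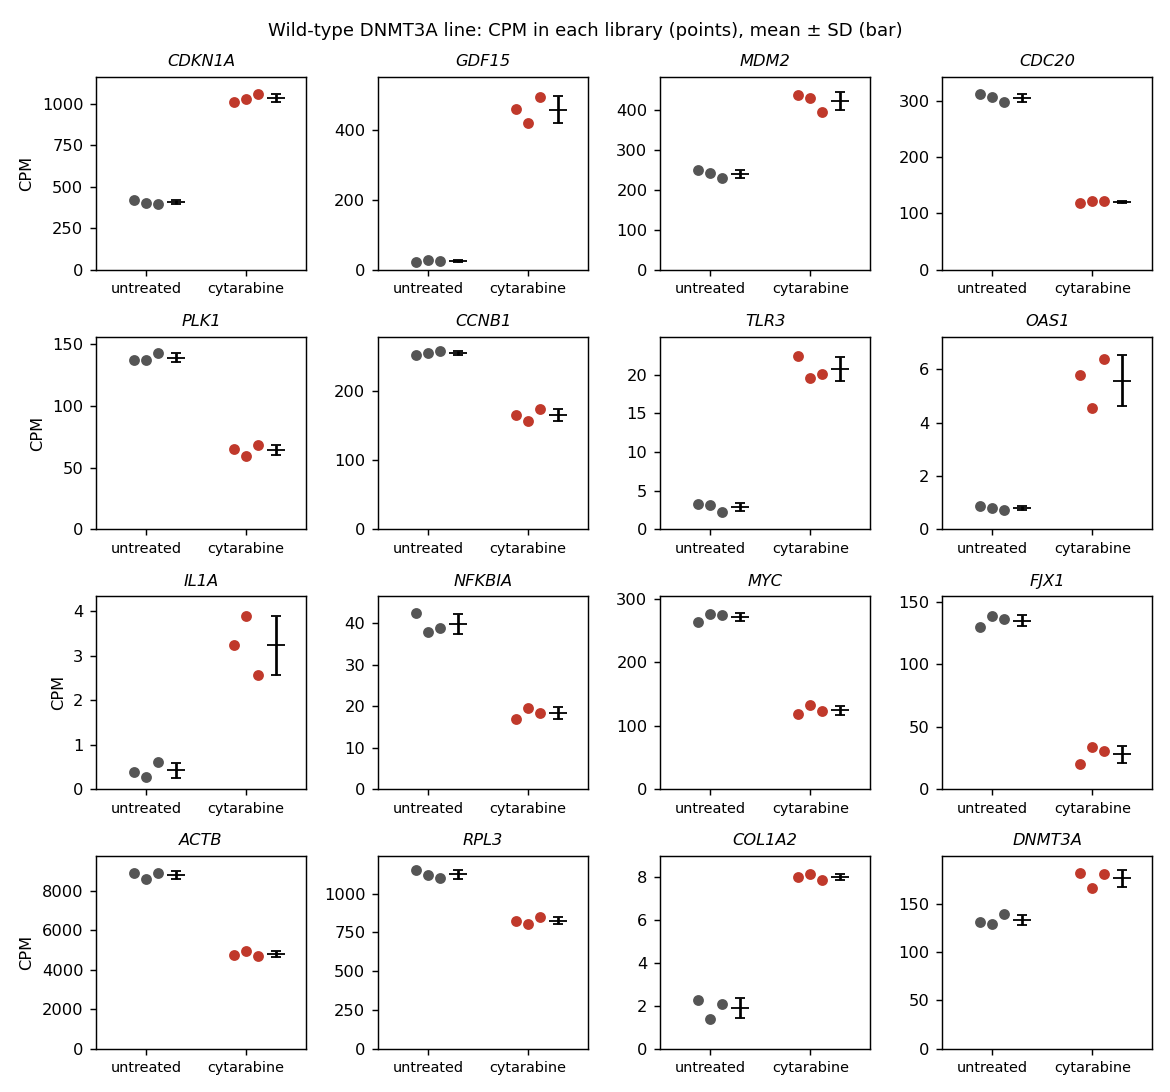
CPM of 16 genes in each library of the wild-type DNMT3A line; points are libraries, 3 untreated in grey and 3 with cytarabine in red, and the bar beside them is the mean ± SD. Every vertical axis starts at 0 and has its own scale. Untreated and treated libraries do not overlap in any of the panels, which include DNMT3A, whose difference did not pass the threshold.

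Genes of G2 and mitosis fell. Of 50 tested members 36 fell and 1 rose, with a median log2 fold change of -0.35. CDC20, the activator of the anaphase-promoting complex, had 312, 307 and 298 CPM untreated and 118, 122 and 122 CPM treated, a log2 fold change of -1.34 (SE 0.0815 and adjusted p 2.52e-10 in the edgeR quasi-likelihood test). The mitotic kinase PLK1 went from 138, 137 and 143 CPM to 64.9, 59.9 and 68.5 CPM, and the cytokinesis kinesin KIF20A from 63.7, 67.04 and 64.9 CPM to 37.1, 37.4 and 36.8 CPM. None of these groups overlapped. Falls ran through all roles in the list: 6 of 10 cyclin, kinase and entry genes, 13 of 16 spindle and kinesin genes, 9 of 13 kinetochore and checkpoint genes and 8 of 11 genes of chromosome structure, exit and cytokinesis. CCNB1, the cyclin of mitotic entry, fell by 0.62, CCNA2 by 0.63 and AURKA by 0.50 on the log2 scale. CDK1, its partner kinase, had 215, 209 and 197 CPM untreated and 242, 239 and 227 CPM treated, higher in all 3 libraries but not past the threshold (log2 fold change 0.19, adjusted p 0.123 in edgeR). It passed as higher in the fit of the 6 WT libraries alone (adjusted p 0.00026 in edgeR) and without the untreated MUT libraries (0.00736). TOP2A (0.04) and FOXM1 (0.00) did not pass it either, and the spindle gene NUSAP1 rose by 0.28. In bulk RNA, fewer cells in a phase and less RNA per cell cannot be told apart.

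The promoters of the 3 mitotic genes with the largest falls are printed for the CCAAT box, bound by NF-Y, and the cell cycle homology region (CHR), searched as TTTGAA. Repressors of this group act through the CHR. Each runs from 250 bases before to 50 after the gene start, 300 bases in all, from RefSeq on GRCh38.p14, 5′ to 3′ along the gene, with matches to either motif on either strand in capitals. CDC20 is at chr1:43358731-43359030, PLK1 at chr16:23678639-23678938 and KIF20A at chr5:138178862-138179161, each on the plus strand.
CDC20: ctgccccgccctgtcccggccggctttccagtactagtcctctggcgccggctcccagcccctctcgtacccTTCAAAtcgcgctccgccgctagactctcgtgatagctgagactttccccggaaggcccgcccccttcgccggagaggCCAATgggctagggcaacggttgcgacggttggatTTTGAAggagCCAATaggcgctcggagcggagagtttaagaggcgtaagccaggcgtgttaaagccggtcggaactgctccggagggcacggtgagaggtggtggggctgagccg
PLK1: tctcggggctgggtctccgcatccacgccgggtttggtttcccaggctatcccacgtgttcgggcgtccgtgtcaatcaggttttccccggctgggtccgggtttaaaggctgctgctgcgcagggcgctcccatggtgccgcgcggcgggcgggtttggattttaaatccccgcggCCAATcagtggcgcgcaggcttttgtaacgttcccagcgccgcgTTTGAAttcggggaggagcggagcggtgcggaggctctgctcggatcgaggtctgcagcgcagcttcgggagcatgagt
KIF20A: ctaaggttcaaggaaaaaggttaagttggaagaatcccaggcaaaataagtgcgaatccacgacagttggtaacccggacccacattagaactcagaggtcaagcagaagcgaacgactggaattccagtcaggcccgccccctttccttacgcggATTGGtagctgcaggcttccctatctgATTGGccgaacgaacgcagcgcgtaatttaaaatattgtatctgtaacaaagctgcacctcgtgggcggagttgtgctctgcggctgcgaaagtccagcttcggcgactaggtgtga
The CDC20 promoter holds 2 matches to the CCAAT box and 2 to the CHR, PLK1 holds 1 of each, and KIF20A holds 2 CCAAT boxes and no CHR. Of the 42 members with a promoter in the table, 76.2% held a CCAAT match and 66.7% a CHR match, against 36% and 9.84% of the 11750 promoters of all tested genes. The CHR share was 66.7% among the 30 members that fell and 63.6% among the 11 that did not pass the threshold, and the CCAAT shares were 80% and 63.6%. A match is a description of the sequence and not a site of binding, and no match says only that these letters are not in the window.

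Replication genes did not move as a group. Of 48 replication and E2F targets 11 rose and 10 fell, a share of each direction close to that of all genes, and the median was 0.007. Of the 6 MCM helicase subunits 5 fell: MCM7 went from 1011, 1026 and 998 CPM to 614, 616 and 616 CPM, a log2 fold change of -0.72 (SE 0.0516 and adjusted p 2.03e-09 in the edgeR quasi-likelihood test), and MCM5 from 230.4, 228 and 227 CPM to 142, 150.1 and 141 CPM. MCM6 (-0.35), MCM2 (-0.31) and MCM3 (-0.28) also fell, while MCM4 (-0.14) passed only with the authors' factors (adjusted p 0.0321 in edgeR), with the 6 WT libraries alone (0.0014) or without the untreated MUT libraries (0.00948). CCNE2, a cyclin that drives S-phase entry, rose from 10.6, 9.21 and 10.2 CPM to 22.96, 20.5 and 20.5 CPM, and CCNE1 by 0.34 on the log2 scale. POLA2, a subunit of the polymerase that primes DNA synthesis, went from 52.1, 53.2 and 52.1 CPM to 78.8, 80.7 and 79.6 CPM. The primase subunits PRIM2 and PRIM1 rose by 0.37 and 0.27, and the ribonucleotide reductase subunits RRM1 and RRM2 by 0.46 and 0.29. The maintenance methylation cofactor UHRF1 fell by 0.56. An E2F site, TTTGGCGC or TTTCGCGC on either strand, stood in 30.8% of the 39 promoters of this list in the table and in 1.86% of all. It was in 5 of the 9 promoters of members that fell (55.6%), 2 of the 8 of members that rose (25%) and 5 of the 22 of members that did not pass the threshold (22.7%), groups too small to rank.

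Genes of fork protection, checkpoint and the Fanconi pathway were likewise mixed, with 9 of 43 members higher and 9 lower. The authors' scaling factors gave 14 lower. CHEK1, the S-phase checkpoint kinase, fell by 0.47, ATRIP by 0.39, HUS1 by 0.65 and NBN by 0.74 on the log2 scale, while CLSPN, which passes the signal from ATR to CHEK1, rose by 0.47, a call lost without any 1 of the 6 libraries (adjusted p 0.05 to 0.0946 in edgeR). ATR itself (-0.23) did not pass the threshold, but did under the same 3 alternatives as MCM4 (adjusted p 0.00536 to 0.0335 in edgeR). RAD51C (0.59), HLTF (0.55), FANCL (0.53), FANCI (0.40) and BRCA1 (0.37) rose. Of the 10 translesion and repriming genes 4 rose: POLN (0.85), POLH (0.76), POLQ (0.56) and PRIMPOL (0.41), the last of which restarts synthesis beyond a stalled fork. RAD18 fell by 0.22, and its call was lost without treated replicate 1 or 3 or untreated replicate 1 or 3 (adjusted p up to 0.0909 in edgeR).

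Of the 17 tested genes of cytarabine uptake, activation and inactivation 8 fell and 2 rose. The main uptake transporter SLC29A1 went from 132, 129 and 137 CPM to 101, 88.8 and 103 CPM, a log2 fold change of -0.44 (SE 0.0675 and adjusted p 2.23e-05 in edgeR). DCK, the kinase of the first activating step, had 62.5, 69.1 and 66.0 CPM untreated and 73.2, 73.5 and 68.4 CPM treated; the groups overlapped and the log2 fold change of 0.12 did not pass the threshold, except with the 6 WT libraries alone (adjusted p 0.0367 in edgeR). The kinases of the following steps fell, CMPK1 by 0.31, NME1 by 0.34 and NME2 by 0.55. CMPK1 lost its call without treated replicate 3 (adjusted p 0.0724 in edgeR) or untreated replicate 1 (0.0522). NME1 and NME2 are near-identical neighbours whose reads may be split. Both rises were among the 7 inactivating enzymes, of which 3 fell, with a median log2 fold change of -0.087. SAMHD1, which cleaves the triphosphate, went from 51.1, 48.6 and 54.7 CPM to 96.9, 89.8 and 94.6 CPM, and cytidine deaminase CDA, at a low level, from 0.981, 0.847 and 0.825 CPM to 2.41, 2.54 and 2.95 CPM. The nucleotidase NT5C fell by 0.98.

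Interferon-stimulated genes rose. Of 53 listed genes 41 were tested, 29 rose and none fell, with a median log2 fold change of 0.835. At an unadjusted p under 0.05 none was lower either, and DESeq2 also called 29 higher and 0 lower. IFITM1 and HERC5 had at most 3 counts in each untreated library; with both set at the bound that a floor of 3 counts per library gives, the median was the same. TLR3, an endosomal sensor of double-stranded RNA, went from 3.24, 3.23 and 2.31 CPM to 22.5, 19.6 and 20.2 CPM, a log2 fold change of 2.82 (SE 0.184 and adjusted p 5.96e-10 in the edgeR quasi-likelihood test). The cytosolic RNA sensors DDX58 (0.69) and IFIH1 (0.43, adjusted p 0.0626 in edgeR without treated replicate 3) and the double-stranded RNA kinase EIF2AK2 (0.45) also rose. The groups did not overlap for these sensors.

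Of the 28 tested antiviral effectors 22 rose. OAS1, which activates RNase L, went from 0.883, 0.794 and 0.715 CPM to 5.80, 4.54 and 6.38 CPM, and OAS3 of the same family from 26.7, 26.5 and 28.3 CPM to 64.2, 63.3 and 60.2 CPM. USP18 (2.22), BST2 (2.33), SAMD9L (1.94), OASL (1.89), IFIT2 (1.82) and IFIT1 (1.74) rose by these log2 fold changes, all but SAMD9L from under 1 CPM. IFITM1 had 0, 0 and 1 counts untreated and 11, 4 and 11 counts treated, so no fold is given. MX1, a common marker of interferon action, did not pass the threshold, with 0.490, 0.741 and 0.990 CPM untreated and 0.742, 0.973 and 0.870 CPM treated. Neither did IRF9 (0.14) or IRF1 (0.11), while STAT2 rose from 33.5, 40.4 and 33.2 CPM to 64.9, 63.98 and 62.04 CPM. Of the 5 listed chemokines and interferon ligands CXCL10 had too few counts to be tested, and the other 4 were not analysed here.

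The promoters of the 3 interferon-stimulated genes with the largest fitted rises are printed for the interferon response element, searched as GAAA, 2 free bases and GAAA on either strand and shown in capitals, from the same table and window. IFITM1 is at chr11:313790-314089, HERC5 at chr4:88456869-88457168 and TLR3 at chr4:186068906-186069205, each on the plus strand.
IFITM1: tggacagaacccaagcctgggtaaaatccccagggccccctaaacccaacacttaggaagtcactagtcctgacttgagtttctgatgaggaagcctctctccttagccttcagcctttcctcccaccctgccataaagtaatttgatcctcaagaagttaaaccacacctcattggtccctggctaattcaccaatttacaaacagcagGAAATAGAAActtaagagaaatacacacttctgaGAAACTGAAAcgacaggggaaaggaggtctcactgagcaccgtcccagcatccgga
HERC5: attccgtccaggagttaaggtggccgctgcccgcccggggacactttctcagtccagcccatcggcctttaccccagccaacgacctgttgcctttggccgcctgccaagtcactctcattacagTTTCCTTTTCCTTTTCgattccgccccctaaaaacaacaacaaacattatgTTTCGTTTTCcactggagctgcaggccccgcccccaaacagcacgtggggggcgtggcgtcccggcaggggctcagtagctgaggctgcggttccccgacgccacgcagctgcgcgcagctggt
TLR3: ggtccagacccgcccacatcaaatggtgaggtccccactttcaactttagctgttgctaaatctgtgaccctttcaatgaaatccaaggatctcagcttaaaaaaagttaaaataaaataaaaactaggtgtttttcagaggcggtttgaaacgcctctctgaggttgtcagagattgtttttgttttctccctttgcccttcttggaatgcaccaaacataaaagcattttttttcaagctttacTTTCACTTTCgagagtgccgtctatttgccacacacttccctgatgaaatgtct
IFITM1 holds 2 matches, HERC5 holds 3, of which 2 overlap, and TLR3 holds 1, which begins 4 bases before the gene start. The element stood in 67.7% of the 31 promoters of this list in the table and in 2.75% of all. The share was 66.7% among the 24 members that rose and 71.4% among the 7 that did not pass the threshold.

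In the MHC class I pathway 9 of 22 genes rose and 1 fell. PSMB9, an immunoproteasome subunit, went from 7.31, 6.61 and 6.71 CPM to 23.2, 19.2 and 22.5 CPM, and TAP1, a peptide transporter subunit, from 52.3, 50.7 and 57.5 CPM to 120.3, 121 and 129 CPM. These genes overlap on opposite strands, so without strand their reads cannot be told apart. HLA-F (1.10), PSMB8 (0.61), NLRC5 (0.47), HLA-C (0.43) and HLA-B (0.38) rose as well, HLA-B with a call lost without any 1 of the 6 libraries (adjusted p 0.0767 to 0.113 in edgeR); the HLA genes are alike in sequence, and how reads with several matches were counted is not given in the sources used here. B2M (0.06) did not pass the threshold, and PSMB10 fell by 0.49.

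Feedback genes of NF-kB fell. Of 11 tested feedback genes and subunits 8 fell and none rose, with a median log2 fold change of -0.64; at an unadjusted p under 0.05 none was higher. NFKBIA, the inhibitor that NF-kB itself induces, went from 42.5, 37.9 and 38.8 CPM to 16.8, 19.7 and 18.4 CPM (log2 fold change -1.12, SE 0.0977, adjusted p 2.43e-08 in the edgeR quasi-likelihood test). TRAF1 (-1.45), RELB (-0.88), NFKB1 (-0.81), BIRC3 (-0.75) and TNFAIP3 (-0.64) also fell. Of 14 tested cytokines 5 rose and 3 fell, shares nearer to those of all genes, and of 4 surface and matrix genes 1 rose. A difference between these roles was not tested. IL1A rose from 0.392, 0.265 and 0.605 CPM to 3.25, 3.89 and 2.56 CPM, and IL11 from 10.4, 9.68 and 12.04 CPM to 28.2, 29.2 and 26.5 CPM. IL1B had 2, 0 and 0 counts untreated and 18, 9 and 11 counts treated, so no fold is given. CSF2 (1.78) and CSF1 (0.87) rose, and CCL4 (-1.53), LIF (-0.90) and CCL2 (-0.59, adjusted p up to 0.0969 in edgeR without treated replicate 2 or 3 or untreated replicate 1) fell; CCL4 has a near-identical paralogue. CXCL8 was at 18.2, 13.7 and 18.5 CPM untreated and 15.8, 16.4 and 18.1 CPM treated, and the groups overlapped.

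Of the 25 tested immediate early genes 11 fell and 7 rose. MYC went from 264, 277 and 274 CPM to 118, 132 and 123 CPM, a log2 fold change of -1.13 (SE 0.0865 and adjusted p 4.78e-09 in edgeR). Among the AP-1 genes 5 of 8 fell, with JUN from 306, 322 and 319 CPM to 199, 214 and 214 CPM and FOSL1 at -0.70 on the log2 scale, while ATF3 (0.84) and, from about 1 CPM, FOSB (0.98) rose; FOSB lost its call without treated replicate 2 (adjusted p 0.157 in edgeR) or untreated replicate 1 (0.0541) or 3 (0.142). EGR3 rose by 1.78 from under 1 CPM. In the integrated stress response list 11 of 36 genes rose and 12 fell. The amino acid transporter SLC7A5 went from 684, 657 and 677 CPM to 301, 356 and 324 CPM, and its partner SLC3A2 fell by 0.65. ATF4, the main transcription factor of this response, fell by 0.28 and ATF5 by 0.87, while the glutathione-degrading enzyme CHAC1 (0.85), ALDH1L2 (0.84) and NUPR1 (0.73) rose.

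**Figure D3:**
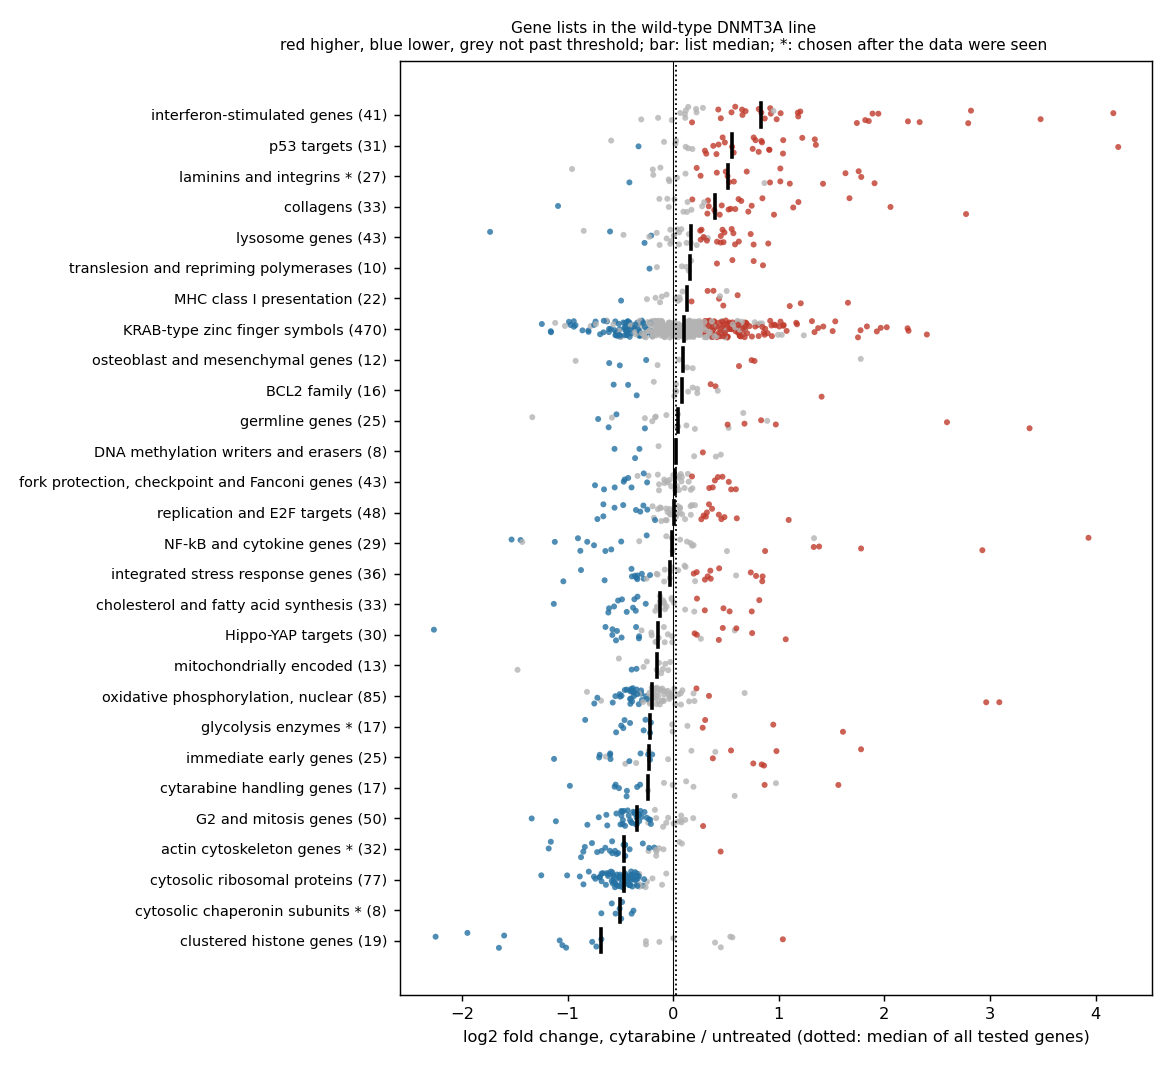
Log2 fold change of each tested member of each gene list in the wild-type DNMT3A line; red members rose, blue members fell, grey members did not pass the threshold, black bars mark list medians and the dotted line the median of all tested genes. Interferon-stimulated genes (median 0.835) and p53 targets lie to the right and ribosomal protein and clustered histone genes to the left; the vertical scatter within a row carries no information, and lists with an asterisk were chosen after the data were seen.

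Histone and ribosomal protein genes fell. Of 41 clustered histone genes listed, 19 had enough counts to be tested, of which 10 fell and 1 rose, with a median of -0.68. HIST1H1C, a linker histone, went from 130.3, 132 and 119 CPM to 37.1, 38.6 and 45.7 CPM (log2 fold change -1.65, SE 0.110, adjusted p 8.07e-10 in edgeR), and HIST1H2BK from 82.6, 91.7 and 83.3 CPM to 14.4, 16.8 and 22.9 CPM. HIST1H2AG rose by 1.04. These genes have near-identical copies and their main transcripts lack a poly(A) tail, so counts depend on the library kit and on how reads were shared. Of 77 cytosolic ribosomal protein genes 68 fell and none rose, with a median of -0.47; at an unadjusted p under 0.05 none was higher and DESeq2 called 67 lower. RPL3 went from 1154, 1121 and 1098 CPM to 827, 803 and 851 CPM. Together this group held 4.97 to 5.14% of all counts in the untreated libraries and 4.12 to 4.26% in the treated ones. Of 79 protein-coding genes for nuclear subunits of oxidative phosphorylation 27 fell and 2 rose, with a median of -0.20. That count depended on the fit: over all 85 tested members, 6 of them not protein-coding, 28 fell here and 55 in a fit of the 6 WT libraries alone. In the highest of 5 equal groups of all tested genes by mean log2 CPM, 48.9% fell, with a median of -0.20. Whether the oxidative phosphorylation genes fell more than other genes of their abundance was not tested. Of the 13 mitochondrially encoded genes 2 fell, and 9 fell in the fit of the 6 WT libraries alone. As a share of all counts, without TMM scaling, mitochondrially encoded genes did not fall. They held 2.93 to 3.21% in the untreated and 3.08 to 3.42% in the treated libraries.

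Collagen genes rose. Of 33 tested collagens and collagen-processing enzymes 21 rose and 1 fell, with a median of 0.40. The fibrillar collagen COL1A2 went from 2.26, 1.38 and 2.09 CPM to 7.98, 8.11 and 7.83 CPM (log2 fold change 2.06, SE 0.258, adjusted p 2.17e-06 in edgeR), whereas COL1A1, its partner chain, had 60.96, 68.5 and 60.8 CPM untreated and 67.9, 62.6 and 72.9 CPM treated and did not pass the threshold. The basement membrane collagens COL4A5 (1.67) and COL4A1 (0.44), the crosslinking enzyme LOX (0.54) and the prolyl hydroxylase P4HA2 (0.64) rose, and COL5A3 fell by 1.09. In the lysosome list 18 of 43 genes rose and 4 fell. The transcription factors TFEB, from 5.64, 4.71 and 4.84 CPM to 8.91, 8.65 and 10.8 CPM, and MITF, from 58.9, 56.2 and 60.8 CPM to 96.9, 101 and 94.3 CPM, rose, while TFE3 of the same family fell by 0.27. LAMP1 (0.01) and CTSD (-0.02) did not pass the threshold.

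Several lists, taken whole, had median log2 fold changes from -0.147 (Hippo-YAP) to 0.104 (ZNF series), against 0.026 for all genes. Of 30 Hippo-YAP genes 7 rose and 10 fell. Of the 22 tested targets 2 rose and 8 fell, with a median log2 fold change of -0.186. Of the 8 regulators 5 rose and 2 fell, with a median of 0.213. A difference between these roles was not tested. ANKRD1 rose by 1.07 and FJX1 fell by 2.27, while CTGF (-0.16) and CYR61 (-0.14), the most used readouts of YAP, did not pass the threshold. Both passed as lower with the 6 WT libraries alone (adjusted p 0.00298 and 0.00417 in edgeR) and without the untreated MUT libraries (0.0107 and 0.0302), CTGF also with the authors' factors (0.0323). Of 33 cholesterol and fatty acid synthesis genes 6 rose and 12 fell, with a median of -0.126. FASN (-0.61) and SREBF1 (-0.35) were among those that fell. Of 12 osteoblast genes 3 rose and 3 fell, ALPL at 0.77 and SOX9 at -0.51. Of 25 germline genes 6 rose and 4 fell. Log2 fold changes in the germline list ran from -1.33 to 3.38. PIWIL2, a PIWI protein of the germline, went from 0.147, 0.318 and 0.605 CPM to 1.58, 2.22 and 2.66 CPM, and MOV10L1, its helicase partner, from 0.245, 0 and 0 CPM to 1.02, 0.919 and 0.919 CPM. From so few counts the fitted log2 fold change of MOV10L1 ran from 2.84 to 7.21 over the fits run. Of 470 symbols of the ZNF series, many of them KRAB zinc finger genes, 117 rose and 73 fell. Among 8 genes that write or erase DNA methylation DNMT1 fell, from 252, 252 and 266 CPM to 202, 211 and 204 CPM (log2 fold change -0.32, SE 0.0760, adjusted p 0.00169 in edgeR), DNMT3B rose by 0.28 and TET3 fell by 0.36; UHRF1 is the other member that fell. The DNMT3B call was lost without treated or untreated replicate 1 (adjusted p 0.0618 and 0.0736 in edgeR) and the TET3 call without any 1 of the 6 libraries (0.0637 to 0.149).

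The largest rises among genes of at least moderate abundance, a mean log2 CPM of 2 or more with no overlap between groups, were 12 genes led by GDF15. MYCT1, a target gene of MYC, went from 2.01, 1.11 and 1.38 CPM to 26.2, 29.1 and 23.9 CPM. EBI3, a subunit of the cytokines IL-27 and IL-35, went from 3.29, 4.18 and 4.12 CPM to 48.6, 45.1 and 44.97 CPM. ITIH5 (3.64), of a family that binds hyaluronan, PPP1R16B (3.64), the creatine transporter gene SLC16A12 (3.31), FAM84A (3.30), H19 (3.13), the axon guidance gene DRAXIN (3.09), TMEM40 (3.08) and the placental growth factor gene PGF (3.07) rose by these log2 fold changes, each with an adjusted p of at most 1.60e-09 in edgeR. H19 is an imprinted long non-coding RNA. The complement protease C1S rose by 3.87. Every one of these genes was lower than 6 CPM in the untreated libraries except GDF15.

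Of the 12 largest falls 4 were protein-coding genes. FJX1 fell from 129.9, 139 and 137 CPM to 20.5, 33.5 and 30.5 CPM and HIST1H2BK by 2.25. CCDC144NL went from 34.9, 34.4 and 32.7 CPM to 7.84, 6.86 and 8.32 CPM; another annotated gene overlaps it on the opposite strand, and whether counting used strand is not given in the sources used here. DHRS2, a short-chain dehydrogenase, went from 906, 953 and 890.4 CPM to 232, 226 and 241 CPM (log2 fold change -1.98, SE 0.102, adjusted p 3.49e-11 in edgeR). The other 8 were 6 processed pseudogenes, the antisense gene TPM1-AS (-1.91) and RN7SL4P (-2.01), a copy of the signal recognition particle RNA, whose call was lost without any 1 treated library or untreated replicate 3 (adjusted p 0.0720 to 0.132 in edgeR). Their reads can be shared with parent or overlapping genes, so these falls are uncertain; HMGN2P5 and PTMAP2, at -1.82 and -1.78, are examples.

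In CPM the largest gains after CDKN1A and GDF15 were those of the endocytic receptor LRP1, from 170.2, 168 and 172 CPM to 487, 474 and 454 CPM, and the syndecan SDC1, from 198, 199 and 204 CPM to 469, 504 and 494 CPM. APP (0.41), TTYH3 (0.70), ANKRD1 (1.07) and the epidermal protein gene FLG (2.21) followed. The largest loss was that of beta-actin, ACTB, from 8895, 8583 and 8933 CPM to 4767, 4955 and 4704 CPM (log2 fold change -0.87, SE 0.0757, adjusted p 2.30e-08 in edgeR). ACTG1 fell by 1.18, filamin FLNA by 0.68, the chaperone HSP90AB1 by 0.72, the glycolytic enzymes ENO1 and GAPDH by 0.83 and 0.46 and vimentin VIM by 0.86 on the log2 scale. Genes often used as references, ACTB and GAPDH, were thus among them. RN7SL2, which has many near-identical copies, fell by 1.05. Such gains and losses favour long and abundant genes and do not rank genes per molecule.

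Genes near silence were also switched on. With under 0.5 CPM in every untreated and over 1 CPM in every treated WT library there were 91 genes, 73 of them protein-coding. The reverse limits were met by 7 genes. Of the 91 genes 90 passed the test, and of the 7 genes 6. These limits already set the same libraries apart, so passing the test is no separate support. The highest after treatment were LAPTM5, a lysosomal membrane protein of blood cells, with 3, 4 and 7 counts untreated and 139, 93 and 90 counts treated, and RNASE7, an antimicrobial ribonuclease of the skin, with 9, 3 and 2 counts untreated and 107, 106 and 103 counts treated. GRHL3, CLTRN, SLC5A5 and XIRP1 followed, at 2.94 to 3.49 CPM on average after treatment. Levels were low: with limits of 0.25 and 2 CPM 5 genes were switched on and 0 off. Leaving out treated WT replicate 2 raised the first count from 91 to 137. Fewer libraries then had to meet the limits, which by construction tends to raise the count.

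Direction depended on abundance and class. In 5 equal groups of genes by mean log2 CPM over all libraries, the share that rose was 21.3% in the lowest, 36.1% in the middle and 14.4% in the highest, and the share that fell went from 3.98% in the lowest to 48.9% in the highest. The 100 most counted genes of each library held 16.1 to 16.5% of its counts untreated and 13.8 to 14.1% treated. Processed pseudogenes had a median of -0.65, with 35 of 1022 higher and 285 lower, and held 2.00 to 2.06% of counts untreated and 1.55 to 1.63% treated. Long intergenic non-coding RNAs had a median of 0.275, with 225 of 878 higher and 59 lower. Protein-coding genes of long genomic span rose more often: 36.4% rose and 16% fell in the longest of 5 equal groups, against 23.1% and 29.1% in the shortest. Abundance differs between these groups, and genes are not independent replicates, so these shares are descriptions.

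**Figure D4:**
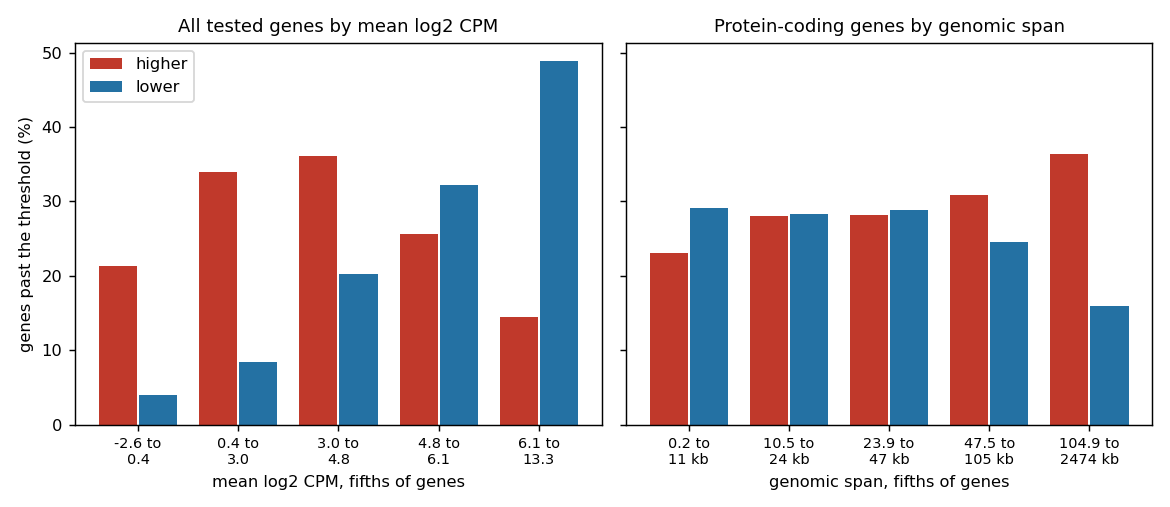
Share of genes past the threshold, in percent, that rose (red) or fell (blue) in the wild-type DNMT3A line, by 5 equal groups of mean log2 CPM (left, all tested genes) and of genomic span (right, protein-coding genes). The share that fell climbs from 3.98% to 48.9% with abundance, and the share that rose climbs from 23.1% to 36.4% with span.

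Whether the WT line responded otherwise than the others was tested by the difference between effects. Against EV 26 genes had a higher effect in WT (0.143% of those tested) and 26 a lower one (0.143%), and against MUT 90 a higher (0.494%) and 93 a lower one (0.51%) in the edgeR quasi-likelihood interaction test. Both comparisons use the same WT libraries, so their values are given side by side. The split for EV was 68.8% higher with the authors' factors, 64.7% without a low-count filter and 63.8% in DESeq2, against 50%. That for MUT was 70.9% higher with RLE size factors, 77.5% in DESeq2, 63.7% with genes averaging 50 counts or more and 39.2% when only the 2 lines entered the fit, against 49.2%. The balance of higher and lower differences thus moved with the scaling, the filter and the tool. Single libraries decided the counts too: without treated WT replicate 2 they were 12 and 38 genes in all, without untreated MUT replicate 1, 2 or 3 the MUT count was 810, 674 or 337, and 12 of 52 and 34 of 183 genes passed in every fit that left out 1 library.

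CD82, a membrane protein of the tetraspanin family and a known p53 target, rose most in WT. It had 31.7, 30.1 and 30.9 CPM untreated and 112, 117 and 113 CPM treated in WT, against 37.9 ± 3.44 and 82.7 ± 5.91 CPM in EV (SD, n = 3). In MUT the 2 values were 49.5 ± 3.45 and 73.4 ± 4.96 CPM. The treated WT libraries lay above those of both other lines. The excess over the EV effect was 0.76 (SE 0.1105, adjusted p 0.00538 in edgeR) and over the MUT effect 1.32 (SE 0.110, adjusted p 2.24e-06). GDF15 rose by 1.19 more than in EV (SE 0.184, adjusted p 0.00538 in edgeR), where it went from 34.3 ± 1.77 to 279.6 ± 27.6 CPM; against MUT the difference of 0.33 did not pass the threshold. CHAC1 rose in WT and fell in EV, by 0.32, a difference of 1.17 (adjusted p 0.00538 in edgeR). MCM5 fell by 0.43 less than in EV (adjusted p 0.0191), where it went from 265 ± 5.49 to 124 ± 2.48 CPM. TIGAR, an antioxidant p53 target, rose by 0.71 more than in EV (adjusted p 0.0375 in edgeR). TAP1, PSMB8, PGF and ASNS rose in WT, with effects 0.58, 0.50, 0.89 and 0.53 above those in MUT. The calls of CD82, GDF15 and CHAC1 held in all 12 fits that left out 1 library; those of MCM5, TIGAR, PSMB8, PGF and ASNS were lost in 8 to 11 of them (adjusted p up to 0.125 in edgeR), and that of TAP1 without treated MUT replicate 3 (0.0521).

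TXNIP, an inhibitor of thioredoxin and glucose uptake, moved the opposite way. In WT it had 5.79, 5.56 and 6.05 CPM untreated and 3.85, 3.84 and 3.96 CPM treated, while in MUT it rose from 4.89 ± 0.544 to 8.18 ± 0.342 CPM. The difference was -1.31 against MUT (SE 0.173, adjusted p 0.00215 in edgeR) and -0.83 against EV (adjusted p 0.0394). ATOH8, a transcription factor, fell by 1.02 in WT and had a change of 0.42 in MUT that did not pass the threshold, a difference of -1.44. The fibrillar collagens COL3A1 and COL1A1 rose in EV and MUT and did not pass the threshold in WT: COL3A1 differed by -1.06 from EV and -1.26 from MUT, and COL1A1 by -0.62 from MUT. Untreated COL3A1 was 24.2 ± 2.73 CPM in WT and 6.57 ± 1.08 CPM in EV, and treated 22.2 ± 1.24 and 12.4 ± 2.38 CPM. TRIML2 rose by 2.6 in WT and by 1.35 in EV, a difference of 1.25 (adjusted p 0.0386 in edgeR), with an untreated level of 1.34 ± 0.364 CPM in WT and 4.63 ± 0.127 CPM in EV. H19 rose by 1.34 more than in MUT. Untreated it was 1.73 ± 0.476 CPM in WT and 3.99 ± 1.24 CPM in MUT. Its treated levels were 15.3 ± 0.98 and 13.7 ± 1.32 CPM. Of these, TXNIP and COL3A1 against MUT passed in all 12 fits that left out 1 library, while TXNIP and COL3A1 against EV, ATOH8, COL1A1, TRIML2 and H19 were lost in 7 to 11 of them (adjusted p up to 0.157 in edgeR).

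ESM1, a secreted endothelial proteoglycan, rose in WT from 14.1, 13.97 and 11.4 CPM to 34.4, 46.4 and 41.3 CPM, with log2 fold changes of 0.05 in EV and 0.12 in MUT that did not pass the threshold, and AP001972.5 rose by 1.28 in WT against -0.16 and 0.04. C1S ended at 16.9 ± 2.42 CPM in WT and 16.8 ± 3.18 CPM in EV, from a lower start in WT. CCDC144NL and the long non-coding RNA AC129926.2 fell further in WT than in EV, by -1.47 and -1.17, from untreated levels of 33.98 ± 1.16 and 16.5 ± 1.73 CPM in WT and 33.5 ± 0.556 and 20.7 ± 0.610 CPM in EV. SEMA3A and PLAC1 rose less in WT than in EV, by -1.36 and -1.21. SEMA3A started higher in WT, at 16.7 ± 1.97 CPM against 6.70 ± 0.333 CPM in EV and 5.07 ± 0.652 CPM in MUT, and ended at 21.9 ± 2.92, 22.6 ± 4.38 and 19.4 ± 2.76 CPM. Its own rise in WT, 0.39, lost its call in 4 of 6 fits that left out 1 library (adjusted p up to 0.127 in edgeR). PLAC1 also started higher in WT, at 3.57 ± 0.571 CPM against 1.94 ± 0.218 CPM in EV. HIST1H2AG had an effect 1.08 above that in MUT. C1S, CCDC144NL, SEMA3A, HIST1H2AG and, against EV, AP001972.5 kept their calls in all 12 fits that left out 1 library. ESM1, PLAC1 and AC129926.2 lost theirs in 5 to 11 of them (adjusted p up to 0.193 in edgeR), and AP001972.5 against MUT without treated WT replicate 2 (0.0545).

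**Figure D5:**
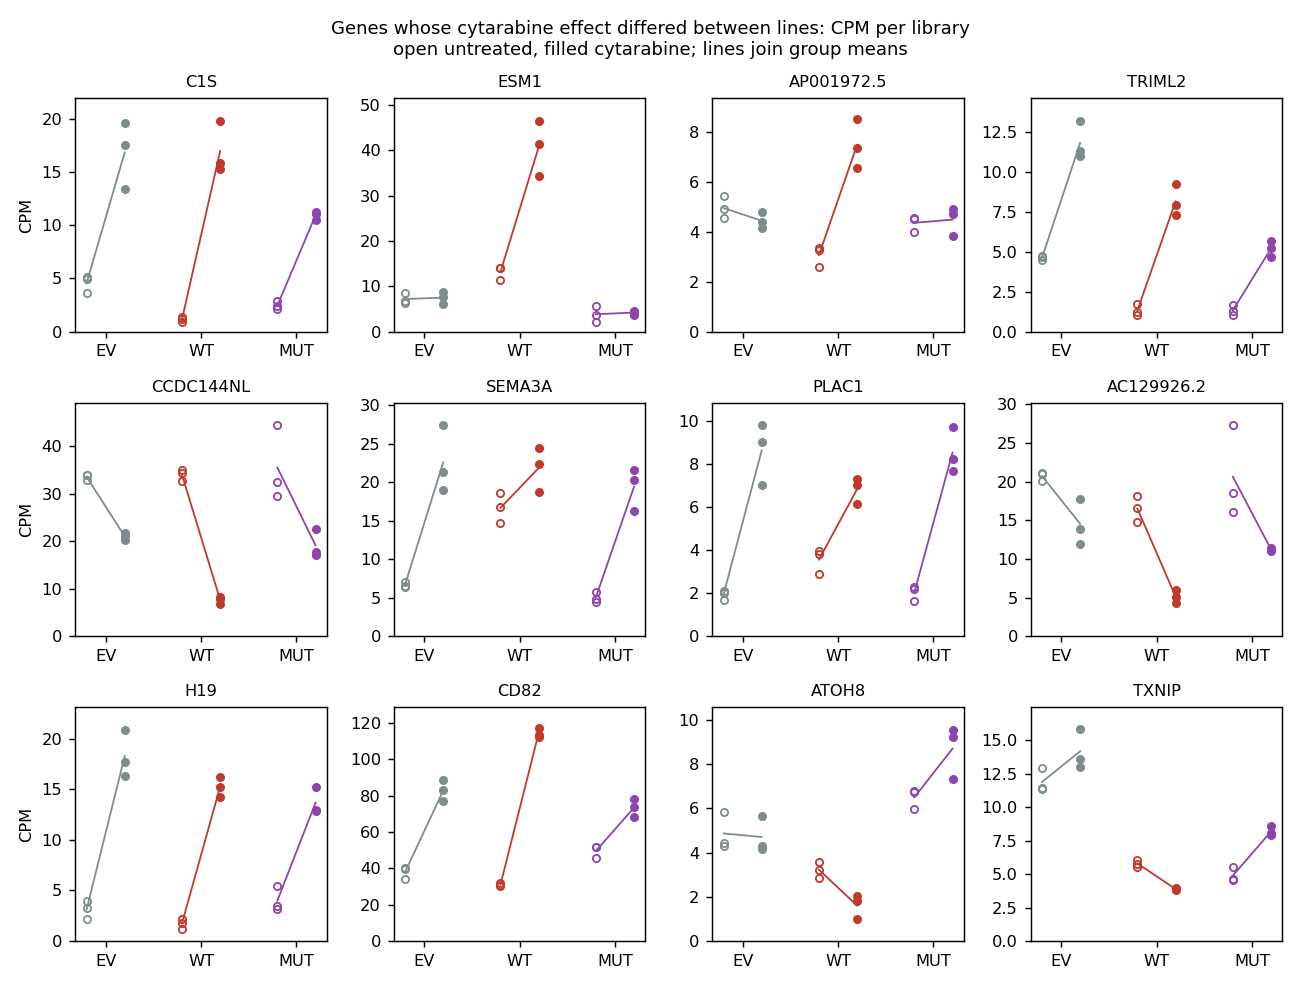
CPM per library of 12 genes of the difference tests in the EV, wild-type (WT) and mutant (MUT) DNMT3A lines; open points are untreated and filled points cytarabine-treated libraries, lines join group means, and each vertical axis starts at 0. ESM1 and AP001972.5 climb in WT and stay level in the other lines, and TXNIP falls in WT and climbs in MUT.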

How the data were processed

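RNA of 18 cultures was sequenced, 6 of them from the wild-type DNMT3A line. The submitters' processing notes name CASAVA, STAR 2.6.1d and hg38, without their roles, and the counting tool, strandedness and the treatment of multi-mapping reads are not given in the sources used here. The deposited gene table holds estimated counts made by the authors, of which 70.4% are whole numbers; they were rounded. The authors' normalized table holds a signal equal to 1 plus a factor times the count, from which the authors' factors were recovered. Genes passing filterByExpr (18226 of 25296) were fitted in 1 edgeR 4.0.16 quasi-likelihood model of 6 groups with TMM scaling (R 4.3.3), and p-values were adjusted by Benjamini-Hochberg over all genes tested. Log2 fold changes are the fitted ones and the SE is derived from the F statistic. The scripts were tested on simulated data. Library totals ran from 15.4 to 21.9 M, so that low genes are limited by counting.

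Named genes were DNMT3A, the 12 largest log2 rises and falls among called genes averaging 2 or more in log2 CPM whose groups did not overlap, the 8 largest CPM gains and losses, the 4 highest and 4 lowest differences from each other line under the same abundance limit, and members of the lists. The switched-on genes were named after their values were seen. The genes, lists and comparison were chosen with earlier results of these data known. Alternatives were RLE and the authors' factors, DESeq2 1.42.0, other filters, sample sets and thresholds, a replicate block and leaving out each replicate. Promoters came from RefSeq (GRCh38.p14), matched by symbol for 11750 of the tested genes. Single values of a few list members are not reported here.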

Additional observations from a re-analysis of the deposited data

Results flagged for a closer look

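Each value here is a difference between 2 log2 effects of cytarabine, that in the wild-type DNMT3A line minus that in another line, which passed the edgeR quasi-likelihood interaction test at an adjusted p under 0.05. Both comparisons share the wild-type libraries. Against the empty vector line the effect was higher for C1S (1.99), ESM1 (1.58), AP001972.5 (1.44), TRIML2 (1.25), GDF15 (1.19), CHAC1 (1.17), CD82 (0.76), TIGAR (0.71) and MCM5 (0.43). It was lower for CCDC144NL (-1.47), SEMA3A (-1.36), PLAC1 (-1.21), AC129926.2 (-1.17), COL3A1 (-1.06) and TXNIP (-0.83). Against the mutant line it was higher for C1S (1.73), ESM1 (1.5), H19 (1.34), CD82 (1.32), AP001972.5 (1.24), HIST1H2AG (1.08), PGF (0.89), TAP1 (0.58), ASNS (0.53) and PSMB8 (0.50). It was lower for SEMA3A (-1.55), ATOH8 (-1.44), TXNIP (-1.31), COL3A1 (-1.26), CCDC144NL (-1.25), PLAC1 (-1.11) and COL1A1 (-0.62).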

How the results depend on the processing

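The counts of genes higher and lower in the WT line stayed within 1.5 times of 4786 and 4146 under every alternative run except the fold limit, a log2 fold change of at least 1, which by its construction left 1909 and 387. Without 1 library they ranged from 4213 to 4402 and from 3536 to 3692, and 6816 of the 8932 genes (76.3%) passed in all 6 such fits. For the difference from EV, 26 higher and 26 lower genes became 22 and 10 with the authors' factors, 22 and 12 without a filter, 165 and 113 with only the lines compared, 88 and 50 in DESeq2, and 7 and 8 with the fold limit. Leaving out 1 library gave 8 to 30 and 4 to 23. For the difference from MUT, 90 and 93 became 197 and 81 with RLE factors, 239 and 136 at 50 counts or more, 20 and 31 with only the lines compared, 622 and 181 in DESeq2, and 14 and 16 with the fold limit. Leaving out 1 library gave 15 to 498 and 23 to 312. The cause was not tested for these other than the fold limit. The replicate block gave 4654 and 4218 genes in WT, 14 and 17 for EV and 37 and 50 for MUT. Correlations of same-numbered deviations were 0.026, -0.109 and 0.015 between treated and untreated WT libraries. Over all 15 pairs of the 6 groups they ran from -0.292 to 0.528; all 3 exceeded 0.1 in 2 pairs, treated EV with either MUT group, and in none with a WT group, and libraries correlated best with their own number in 39 of 90 cases. For untreated MUT with treated WT, at 0.042, 0.096 and 0.051, 6 of 6 libraries did so, as in the 2 pairs with treated EV. Weak correlations cannot exclude a shared batch, so pairing by number was neither shown nor excluded. Switched-on and switched-off genes, 91 and 7, became 5 and 0 at limits of 0.25 and 2 CPM, and 113 to 137 and 8 to 24 without 1 library. Without a library fewer limits had to be met, which by construction tends to raise these counts. Among list counts, 28 lower oxidative phosphorylation genes became 55 with only the 6 WT libraries and 46 without the untreated MUT libraries, and 11 higher replication genes became 17 with only the 6 WT libraries; the cause was not tested. No named gene passed the threshold in opposite directions. Fitted values close to no change did switch sign between fits, such as those of LAMP1 (-0.052 to 0.052) and FOXM1 (-0.058 to 0.035). Counting limits genes under about 1 CPM.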

Other observations

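Counts for 4 further gene groups, chosen after the data were seen, are given as a description only. All 8 subunits of the cytosolic chaperonin, which folds actin and tubulin, fell, with a median log2 fold change of -0.50. Of 32 actin cytoskeleton genes 23 fell and 1 rose, with a median of -0.46, and of 17 glycolysis enzymes 10 fell and 4 rose, with a median of -0.22. Of 27 laminins and integrins, which join cells to the basement membrane, 17 rose and 1 fell, with a median of 0.515. Among all genes tested 26.3% rose and 22.7% fell. In the highest of 5 equal groups by mean log2 CPM 14.4% rose and 48.9% fell, with a median of -0.20. Whether these 4 gene groups moved more than other genes of their abundance was not tested.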
